A study of Mus musculus with 2 samples.

Results

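The immediate early genes described here are 10 genes, Fos, Fosb, Jun, Junb, Egr1, Atf3, Ier2, Ier3, Nr4a1 and Nr4a2, chosen by name as a gene family and found among the 54146 gene rows of each count table through their Ensembl identifiers. All 10 matched, each with the same identifier version as in GENCODE M21. The wild-type library and the Lin28a knockout library each came from 1 inDrop run on mouse embryonic stem (ES) cells from the inner cell mass, with no further treatment in the labels, grown for 2 days in LIF/2i medium on a layer of mouse embryonic fibroblast (MEF) feeder cells. inDrop isolates each cell in a droplet whose primers add a cell barcode and a unique molecular identifier (UMI), which lets copies of the same molecule be counted once. Each genotype was 1 clone according to the methods and 1 library, so the knockout cannot be told apart from any other difference between the cultures, no test was made, and every interval below is an exact Poisson or binomial interval at 95% that covers counting error only. The labels give no genotype for the feeder cells, so for fibroblasts wild-type and knockout name the library and not the genotype of the cells.

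Immediate early genes are transcribed within minutes of a stimulus, such as a growth factor, serum, calcium or a physical stress, from transcription factors already present in the cell and with no need for new protein synthesis. Mitogen-activated protein kinases reach them through serum response factor with its ternary complex partners and through CREB, and their mRNAs are short-lived. Dissociation of tissues and cultures into single cells is itself known to induce them, fibroblasts included, and LIF/2i medium contains an inhibitor of the kinase that activates ERK.

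Cells were barcodes of 500 UMIs or more in which mitochondrial genes held no more than 20% of the UMIs. They were called fibroblasts when Col1a1, Col1a2 and Col3a1, the genes of the collagen I and III chains, held at least 0.3% of the UMIs, and other cells when they did not. This gave 1808 other cells with 11207628 UMIs and 48 fibroblasts with 431628 UMIs in the wild-type library, and 1599 other cells with 9225733 UMIs and 23 fibroblasts with 115122 UMIs in the knockout library. The median depth was 6112 and 8131.5 UMIs in wild-type and 5072 and 2295 UMIs in knockout other cells and fibroblasts. Of 14 fibroblast markers outside the rule, 14 were at least 2-fold higher in the wild-type fibroblasts, and 10 of the 11 with enough UMIs in the knockout fibroblasts, while 10 of 10 ES markers were at least 2-fold lower in both, and the other cells are therefore called ES cells below. Of all genes 22.2% and 21.9% were higher and 29.7% and 39.4% lower. Lum, Dcn, Postn, Col5a2 and Col6a1 in wild-type, and Col5a2 in knockout, reached 20 UMIs over both pools only through the fibroblasts. Their direction was therefore fixed by that limit. Lin28a itself had 111 CPM (UMIs of the gene per 1000000 UMIs of the pool) in wild-type ES cells and 36.9 CPM in knockout ES cells. UMIs count captured 3′ ends, and levels are compared within a gene only. Fewer expressing cells and less RNA per cell cannot be told apart in a pool. Shares of cells are given beside some levels, but at low counts they follow the level and the depth. Barcodes carry serial names in both tables, so barcodes shared by the libraries could not be counted.

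1 knockout barcode among the ES cells stood apart and is named before the results, because several of them rest on it. That cell had 18430 UMIs, of which 273 were on the 10 genes, against 44 in the next knockout and 51 in the highest wild-type cell. All 10 genes were found in it. Its collagen share was 0.244%, just under the limit, and its fibroblast markers held 0.814% of its UMIs against 0.103% in the pool. It had 3 UMIs of the 10 ES markers, 0.0163% of its UMIs against 0.480% in the pool. By these markers it was more like a fibroblast, and only the collagen limit places it among the ES cells. Values for knockout ES cells are given with it and, where it matters, without it.

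The clearest contrast was between cell types and not between genotypes. Summed over the 10 genes, fibroblasts had 4476 CPM (4279 to 4680) and ES cells 746 CPM (730.3 to 762) in the wild-type library, a ratio of 5.999 (5.71 to 6.30). In the knockout library the same sums were 3283 CPM (2961 to 3632) and 731 CPM (713 to 748), a ratio of 4.49 (4.04 to 4.99), or 4.67 without the barcode above. In the wild-type fibroblasts 8 of the 10 genes were at least 2-fold higher than in the ES cells, where 22.2% of all 16712 genes with at least 20 UMIs over both pools were. In the knockout fibroblasts 7 of 10 were, against 21.9% of 16159 genes. Ier2 and Atf3 were in neither count, Egr1 was in the wild-type count alone, and 0 of 10 were at least 2-fold lower, against 29.7% and 39.4% of all genes. The plot of levels shows the 4 pools gene by gene. The median ratio of the 10 genes was 2.72 on the log2 scale in wild-type and 2.99 in knockout, with medians over all genes of -0.17 and -0.42.

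**Figure D1:**
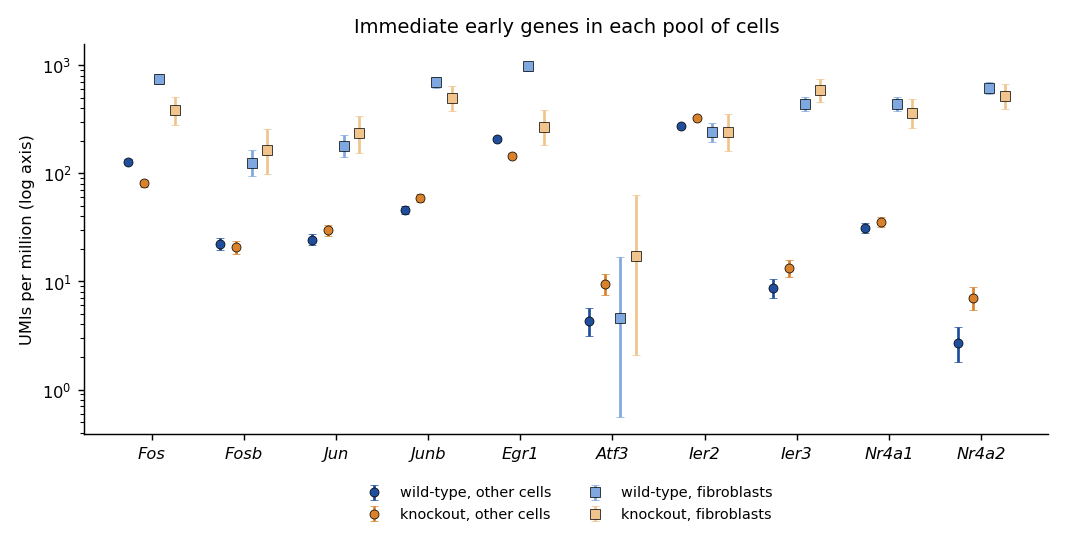
CPM (log axis) of each of the 10 genes in wild-type and knockout ES cells (circles, named other cells) and fibroblasts (squares), with bars for exact Poisson 95% intervals. Levels are to be compared within a gene, not between genes: for 8 genes the fibroblast value lies above the ES value of the same library with intervals apart, and the exceptions are Ier2 and Atf3, whose fibroblast value rests on 2 UMIs in each library.

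The AP-1 genes encode the FOS and JUN subunits that pair to bind AP-1 sites, and ATF3, a stress-induced partner of the same bZIP class. Fos (ENSMUSG00000021250.13, chromosome 12 from 85473890 to 85477273 of GRCm38, plus strand) had 128 CPM in wild-type ES cells, 80.9 CPM in knockout ES cells, 746 CPM in wild-type fibroblasts and 382 CPM in knockout fibroblasts. The fibroblast level was 5.84 times the ES level (5.16 to 6.59) in wild-type and 4.73 times (3.40 to 6.41) in knockout, and the intervals of all 4 levels were apart. Fosb, which encodes another FOS family subunit, had 22.3 and 20.7 CPM in wild-type and knockout ES cells and 125 and 165 CPM in the fibroblasts. Its levels differed between cell types by 5.61 (4.10 to 7.55) and 7.97 times (4.70 to 12.8), and between libraries by less than the counting intervals.

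Jun, the founding JUN subunit, had 24.4 and 29.7 CPM in wild-type and knockout ES cells and 181 and 235 CPM in the fibroblasts. That was 7.39 times higher in the fibroblasts (5.67 to 9.54) in wild-type and 7.90 times (5.11 to 11.7) in knockout. Junb, whose product is a weaker activator that can oppose JUN, had 45.6 and 58.9 CPM in the ES cells and 697 and 495 CPM in the fibroblasts. Its fibroblast ratio was 15.3 (13.2 to 17.7) in wild-type and 8.41 (6.29 to 11.1) in knockout, 9.36 without the single barcode, which held 56 of the 543 knockout UMIs. Atf3 was low, with 4.28 and 9.43 CPM in the ES cells and 2 UMIs in each pool of fibroblasts, 4.63 CPM (0.561 to 16.7) and 17.4 CPM (2.10 to 62.8), ratios of 1.08 (0.127 to 4.13) and 1.84 (0.22 to 6.86). At this depth no difference of Atf3 between cell types was detectable. Fos, Fosb, Jun and Junb were thus all higher in the fibroblasts of both libraries, and for Atf3 the counts were too few to tell.

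Egr1, a zinc finger factor that is a direct target of ERK signalling, had 207 CPM in wild-type ES cells, 146 CPM in knockout ES cells, 982 CPM in wild-type fibroblasts and 269 CPM in knockout fibroblasts. The fibroblasts stood 4.75 times above the ES cells (4.27 to 5.27) in wild-type and 1.84 times (1.25 to 2.62) in knockout. Of the genes past 2-fold in wild-type it was the only one under 2-fold in knockout, where its 31 UMIs lay in 11 of 23 fibroblasts and 1 cell held 11 of them. With no mitochondrial limit the knockout ratio was 2.11. With a collagen limit of 0.1% it was 4.28 (3.44 to 5.27), but that limit counts the single barcode with its 64 Egr1 UMIs as a fibroblast, and without it the ratio was 1.61 (1.10 to 2.29).

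Nr4a1 and Nr4a2 encode orphan nuclear receptors that are active without a known endogenous ligand and are controlled by their induction. Nr4a1 (NUR77) had 31.1 and 35.7 CPM in wild-type and knockout ES cells and 438 and 365 CPM in the fibroblasts, ratios of 14.1 (11.8 to 16.9) and 10.2 (7.24 to 14.1). Nr4a2 (NURR1) had 2.68 CPM in wild-type ES cells, where 30 UMIs lay in 30 cells, and 7.05 CPM in knockout ES cells, where 34 of 65 UMIs came from the single barcode and 3.37 CPM remained without it. At so few UMIs per cell, expression in ES cells and free RNA in the droplets cannot be told apart. In the fibroblasts it had 621 and 521 CPM. Fibroblasts over ES cells was 232 (159 to 351) in wild-type and 74.0 (51.2 to 107) in knockout, or 155 (98.7 to 247) without that barcode. With a collagen limit of 1%, which moves weaker fibroblasts to the ES cells, these ratios were 73.5 and 49.5. Of the 10 genes Nr4a2 had the largest ratio in both libraries, and its ES level moved with the place of the line between the cell types.

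Ier3 encodes a stress-inducible regulator of cell death and of ERK signalling. It had 8.74 and 13.2 CPM in wild-type and knockout ES cells and 440 and 591 CPM in the fibroblasts, ratios of 50.3 (39.2 to 64.9) and 44.7 (32.7 to 60.6). Ier2, which encodes a small nuclear protein, was the one gene with ratios under 1. It had 272 and 329 CPM in the ES cells and 241 and 243 CPM in the fibroblasts, ratios of 0.885 (0.720 to 1.08) and 0.740 (0.491 to 1.07), so the levels of the cell types differed by less than the counting intervals. Ier2 was also the member found in the largest share of ES cells, 68.9% in the wild-type library and 59.2% in the knockout.

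**Figure D2:**
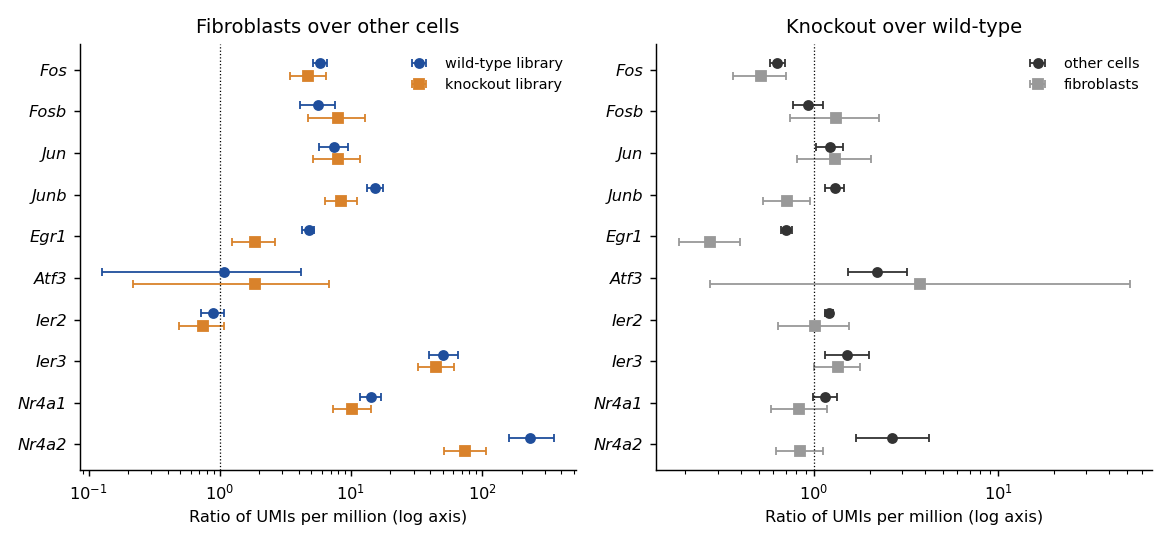
Ratios of CPM (log axis) for fibroblasts over ES cells in each library (left) and knockout over wild-type in each cell type (right), with bars for exact 95% intervals of a ratio of counts and a dotted line at a ratio of 1. On the left 8 genes have intervals wholly right of the line in both libraries, with ratios from 1.84 for Egr1 in knockout to 232 for Nr4a2 in wild-type, the intervals of Atf3 and Ier2 cross it, and on the right Fos and Egr1 lie left of it in both cell types.

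The start regions are shown for 4 genes, Fos as the best known member and Ier3, Nr4a1 and Nr4a2 as genes with large ratios between the cell types that differ in the motifs they hold. The sequences are the 250 bases before the annotated start in RefSeq on GRCm38.p6, read 5′ to 3′ on the gene's strand, with capitals for TGACG, the core of the cyclic AMP response element (CRE), the site of CREB, and for the TATA box TATAAA, either strand, so that CGTCA and TTTATA are the same motifs reversed. The Ier3 and Nr4a1 entries begin at starts inside the GENCODE genes.
Fos (chr12:85473640-85473889, plus strand): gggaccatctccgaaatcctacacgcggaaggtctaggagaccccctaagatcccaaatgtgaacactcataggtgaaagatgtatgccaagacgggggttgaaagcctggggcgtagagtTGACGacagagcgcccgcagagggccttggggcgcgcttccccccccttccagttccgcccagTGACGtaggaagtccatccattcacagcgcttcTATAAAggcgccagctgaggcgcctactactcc
Ier3 (chr17:35821463-35821712, plus strand): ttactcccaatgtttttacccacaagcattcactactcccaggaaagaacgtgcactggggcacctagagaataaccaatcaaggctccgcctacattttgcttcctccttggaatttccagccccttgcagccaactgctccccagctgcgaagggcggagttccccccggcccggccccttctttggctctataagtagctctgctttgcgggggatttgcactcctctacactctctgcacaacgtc
Nr4a1 (chr15:101266596-101266845, plus strand): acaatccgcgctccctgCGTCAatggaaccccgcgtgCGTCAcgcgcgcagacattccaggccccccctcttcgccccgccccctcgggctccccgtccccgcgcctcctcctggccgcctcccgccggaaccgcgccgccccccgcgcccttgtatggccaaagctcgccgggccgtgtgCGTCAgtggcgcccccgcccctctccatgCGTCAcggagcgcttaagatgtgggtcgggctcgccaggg
Nr4a2 (chr2:57124004-57124253, minus strand): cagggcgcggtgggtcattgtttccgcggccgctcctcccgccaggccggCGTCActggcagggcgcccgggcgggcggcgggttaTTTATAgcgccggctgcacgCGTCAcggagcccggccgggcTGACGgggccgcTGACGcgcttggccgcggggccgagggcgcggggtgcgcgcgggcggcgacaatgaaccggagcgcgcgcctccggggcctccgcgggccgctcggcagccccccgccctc
Start regions were read for 8 of the 10 members, and those of Egr1 and Ier2 were not analysed here. The CRE core was in 6 of the 8, with 4 copies each in Nr4a1 and Nr4a2, 2 in Fos and 1 each in Fosb, Junb and Atf3, where 17.8% of all 32851 start regions of this length hold it. In Fos the copies lie 129 and 66 bases before the start and the TATA box 33 bases before it. Jun and Ier3 had no CRE core, and Ier3 had a larger ratio of fibroblasts over ES cells than 8 of the other members. The letters TATAAA were in 2 of 8, Fos and Nr4a2, against 12.4%. In Nr4a2 they lie on the opposite strand, 164 bases before the start, so they are not shown to be a TATA box of that start. The full CRE TGACGTCA, which contains the CRE core, the AP-1 site TGAGTCA, the CArG box and the NF-kB site were in 0 of 8, against 1.55%, 4.46%, 1.47% and 0.140% of all start regions, which says only that these letters are not in these windows. In the 3′ UTR, taken as the longest annotated for each gene, the AU-rich core TATTTAT was present 4 times in Ier3, 2 times in Fos and once in Fosb, Jun, Atf3 and Nr4a2, against 31.6% of 18085 genes with at least 1. It was not found in Junb, Egr1, Ier2 and Nr4a1. The CRE core and the AU-rich core were chosen after the values were seen.

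Between the genotypes, the ES cells differed little. Summed over the 10 genes, knockout over wild-type was 0.979 (0.948 to 1.01), and 0.941 (0.911 to 0.972) without the single barcode. Of the 8 genes with at least 200 UMIs over both pools, 0 were at least 2-fold higher and 0 at least 2-fold lower, where 1.19% and 1.36% of 9643 genes were. Atf3 and Nr4a2 had fewer UMIs than that. The sum hid shifts in both directions. Fos was lower in knockout, with 746 UMIs against 1432 and a ratio of 0.633 (0.578 to 0.692), and so was Egr1, with 1350 against 2319 UMIs and a ratio of 0.707 (0.661 to 0.757). Fos was found in 23.0% of knockout and 38.8% of wild-type ES cells and in 3.48% and 6.22% with every cell taken at 500 UMIs. Egr1 was found in 33.0% and 49.8%, and in 5.94% and 9.54% at 500 UMIs. At 500 UMIs shares this low restate the level, and at full depth they also follow the depth of the cells. They therefore do not tell fewer expressing cells from less RNA per cell.

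Ier2 was higher in knockout ES cells, with 3033 UMIs against 3053 from the larger wild-type pool and a ratio of 1.21 (1.15 to 1.27). So was Junb, 1.29 (1.14 to 1.46), which came to 1.16 (1.02 to 1.32) without the barcode, and Ier3, 1.51 (1.15 to 1.99) with and 1.34 (1.01 to 1.78) without it. The interval of Ier3 without the barcode barely cleared 1, and its lowest ratio in any alternative was 1.22. Atf3 had 87 against 48 UMIs, a ratio of 2.20 (1.53 to 3.20). Jun, at 1.21 (1.02 to 1.44), had an interval of 0.963 to 1.36 without the barcode, and Nr4a2 went from 2.63 (1.68 to 4.2) to 1.26 (0.737 to 2.15). Fosb, 0.928 (0.765 to 1.13), and Nr4a1, 1.15 (0.985 to 1.34), had intervals that held 1. Fos, Egr1 and Fosb stayed under 1 and the other 7 genes above 1 in every alternative run.

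In the fibroblasts, whose own genotype is not given, the knockout library over the wild-type library was 0.734 (0.655 to 0.819) for the sum, from 378 and 1932 UMIs in 23 and 48 cells. Of the 9 genes with at least 20 UMIs, 0 were at least 2-fold higher, against 6.46% of 4937 genes, and 1 was at least 2-fold lower, Egr1, against 15.9%. Egr1 had 269 against 982 CPM, 0.274 (0.184 to 0.395). Fos had 382 against 746 CPM, 0.512 (0.365 to 0.704). Junb had 495 against 697 CPM, 0.710 (0.525 to 0.945). Ier3 was at 1.34 (1.002 to 1.78), an interval that barely cleared 1, and 1 cell held 20 of its 68 knockout UMIs. The interval covers counting error only, so the direction of Ier3 is not settled. The intervals of Fosb, Jun, Ier2, Nr4a1, Nr4a2 and Atf3 held 1. The knockout fibroblasts were fewer and shallower, with a median of 2295 UMIs against 8131.5 and a median mitochondrial share of 1.95% against 1.34%, and they differed in make-up. ES markers held 0.0634% of their UMIs against 0.0331%, with Pou5f1 at 3.75 times the wild-type level (1.91 to 7.34). Fibroblast markers held 2.13% against 2.43%, and of 13 with enough UMIs 0 were at least 2-fold higher and 4 at least 2-fold lower, Acta2 at 0.235, Tagln at 0.378, Dcn at 0.215 and Postn at 0.199. The part of these differences in the result was not tested. With a collagen limit of 0.1%, which takes in 48 knockout and 67 wild-type cells, the ratio of the sum was 0.970, of Egr1 0.625, of Fos 0.680 and of Junb 1.06. The single barcode is among those 48 cells and brings 273 member UMIs, and with the same limit but without it the ratios were 0.653 (0.585 to 0.728), 0.236 (0.159 to 0.337), 0.476 (0.345 to 0.645) and 0.607 (0.45 to 0.806). Fos and Egr1 alone among the 10 genes had ratios under 1 in both cell types with either limit.

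Within the ES cells, the levels of Fos and Egr1 differed between cells of different RNA composition, and those of Ier2 and Junb differed less over the well filled bins. In cells with a mitochondrial share under 1%, Egr1 had 140 CPM (129 to 153) in wild-type and 45.4 CPM (37.8 to 54.1) in knockout, a ratio of 0.324 (0.264 to 0.394). In cells with a share of 1 to 2% it had 247 and 149 CPM, a ratio of 0.602 (0.538 to 0.672). In cells with a share of 2 to 5% the levels were 230 and 228 CPM, a ratio of 0.993 (0.888 to 1.11), or 0.913 (0.815 to 1.02) without the single barcode, so the libraries differed there by less than the counting intervals. Fos gave the same order with ratios of 0.376, 0.675 and 0.786 in these bins, the last 0.719 without the barcode, and the interval of each stayed under 1. Other genes moved too. Ier2 had ratios of 1.01 (0.921 to 1.11), 1.36 and 1.38, so its interval under 1% held 1. Without the barcode, Jun had 1.06, 0.928 and 1.94 (1.34 to 2.86), and Nr4a1 0.981, 1.08 and 1.64 (1.13 to 2.43). Atf3, with 3.06, 1.60 and 2.55, and Ier3, with 1.75, 1.36 and 0.943, did not rise in this way. Shares of 5 to 20% held 41 wild-type and 189 knockout cells and few UMIs, with Ier2 at 72.4 CPM from 3 UMIs and 180 CPM from 52 UMIs.

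The share of UMIs on 93 ribosomal protein (RP) genes gave a like picture. Egr1 had 240 and 231 CPM in wild-type and knockout cells with an RP share of 5 to 10%, 222 and 148 CPM at 10 to 15%, and 76.4 and 40.8 CPM above 15%. The ratio at 5 to 10% was 0.962 (0.875 to 1.06) with the single barcode and 0.876 (0.794 to 0.966) without it. Fos had 135 and 101 CPM, 140 and 97.4 CPM, and 76.9 and 29.8 CPM in the same bins, the knockout value at 5 to 10% being 91.0 CPM without the barcode. Fos and Egr1 were thus lowest in RP-rich cells of both libraries, and knockout was under wild-type for both genes in each of these bins, for Egr1 at 5 to 10% by less than the counting interval unless the barcode is left out. Ier2 had 262 to 293 CPM in wild-type and 296 to 365 CPM in knockout over these bins, and Junb 44.4 to 51.3 CPM and 53.5 to 72.1 CPM, 53.1 to 54.2 CPM without the barcode. Cells with an RP share above 15% were 13.3% of wild-type and 24.8% of knockout ES cells. In the shallow bins, 142 wild-type and 307 knockout cells of 500 to 1000 UMIs and 66 and 195 cells of 1000 to 2000, the intervals were wide. The knockout over wild-type ratio of Fos was 0.355 (0.163 to 0.756) and 1.18 (0.522 to 2.98) in them, that of Egr1 0.698 (0.365 to 1.37) and 0.336 (0.185 to 0.609), and that of Ier2 1.33 (0.695 to 2.73) and 0.839 (0.417 to 1.80). Ier2 had 133 and 178 CPM in wild-type and knockout cells of 500 to 1000 UMIs and 135 and 113 CPM at 1000 to 2000, lower than its 267 to 305 CPM and 276 to 353 CPM in the deeper bins. Among cells of 2000 to 5000 UMIs, 404 wild-type and 285 knockout, the knockout over wild-type ratio was 0.455 (0.342 to 0.598) for Fos, 0.495 (0.40 to 0.608) for Egr1, 1.02 (0.872 to 1.19) for Ier2 and 1.41 (0.98 to 2.02) for Junb. Among cells of 5000 to 10000 UMIs it was 0.565 for Fos, 0.683 for Egr1, 1.28 for Ier2 and 1.17 for Junb, and among those over 10000 UMIs 0.809, 0.906, 1.16 and 1.24, without the barcode 0.748, 0.823, 1.15 and 0.984. The 83 wild-type and 215 knockout cells with an RP share under 5% held few UMIs. In them Ier2 had 39.6 CPM from 3 UMIs and 133 CPM from 40 UMIs, below its other RP bins, a ratio of 3.34 (1.07 to 16.9). The ratio there was 0.329 (0.164 to 0.675) for Fos, 0.486 (0.258 to 0.951) for Egr1 and 2.26 (0.313 to 99.0) for Junb. Whether depth, mitochondrial share or RP share accounts for the differences was not tested.

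**Figure D3:**
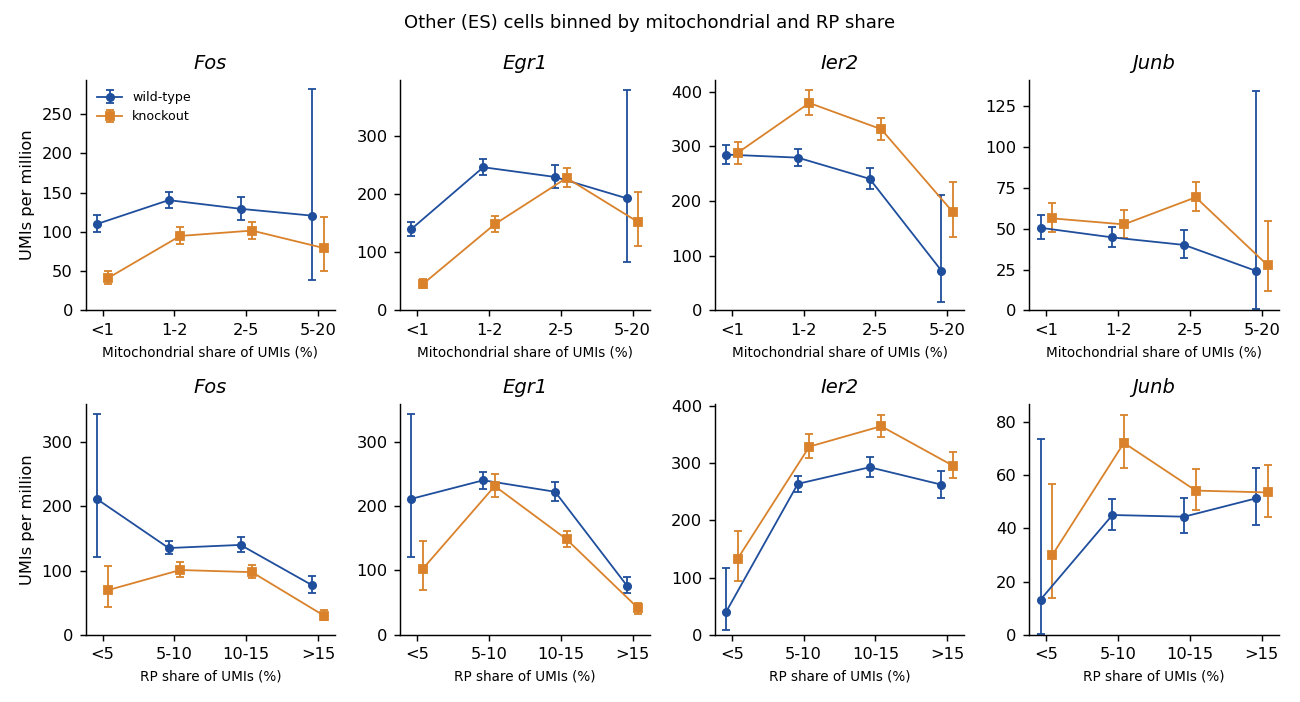
CPM of Fos, Egr1, Ier2 and Junb in wild-type and knockout ES cells binned by mitochondrial share (top) and RP share (bottom), with bars for exact Poisson 95% intervals. Egr1 falls to 45.4 in knockout cells with a mitochondrial share under 1%, where wild-type has 140, and meets the wild-type value at 2 to 5%. The knockout bins at a mitochondrial share of 2 to 5% and an RP share of 5 to 10% include the single barcode with 273 UMIs of the 10 genes.

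Most members varied between ES cells by more than depth alone gives. Every member in knockout was found in fewer cells than that, and in wild-type Fos and Egr1 fell furthest below it. Overdispersion, the variance between cells beyond Poisson counting divided by the squared mean (0 where counts follow depth alone), had a median of 0.235 in wild-type and 0.261 in knockout over 9643 genes. It was above the median for 8 of 10 members in wild-type and 9 of 10 in knockout. Fos had 1.70 in wild-type and 3.24 in knockout, 2.05 without its highest cell, and was found in 702 wild-type cells where depth alone gives 922, and in 368 knockout cells where it gives 529. Egr1 had 1.20 and 3.22, 1.42 without its highest cell, with 0.753 and 0.690 of the cells that depth alone gives. For the other members the number of cells was 0.87 to 1.01 of that given by depth in wild-type and 0.45 to 0.89 in knockout, the lowest being Nr4a2, whose UMIs lay mostly in the single barcode. Over all genes the median was 0.968 in wild-type and 0.959 in knockout. Jun had an overdispersion of 2.60 and 4.22, or 1.66 and 1.54 without its highest cell. Ier2 had 0.13 in both libraries, below the median of all genes. Nr4a2 in wild-type, with 1 UMI in each of 30 cells, was below it too. The 1% of cells with most Fos UMIs held 12.6% of them in wild-type and 20.4% in knockout, and the same share was 5.99% and 6.23% for Ier2. The single barcode held 30 of the 746 knockout Fos UMIs. This share also depends on the number of UMIs, 1432 and 746 for Fos and 3053 and 3033 for Ier2. It therefore does not by itself compare how concentrated the genes or libraries were.

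Pairs of members were counted in the ES cells of at least 5000 UMIs, 1196 wild-type and 812 knockout. The share of cells with 1 gene was higher among cells that held the other in 39 of 45 pairs in wild-type, 86.7%, where 69.4% of all pairs among 9577 genes did the same. In knockout it was 38 of 45 pairs, 84.4%, and 34 of 45, 75.6%, without the single barcode, against 78.6% of all pairs among 9564 genes, so the share of member pairs was near that of all genes there. The pair with the largest Pearson correlation was Fos and Egr1, at 0.30 in wild-type and 0.295 in knockout, or 0.278 without the barcode. Of the wild-type cells with Fos 67.0% held Egr1, and of those without Fos 49.3%, with 63.5% and 42.2% in knockout. The median correlation over the 45 pairs was 0.03 in wild-type, and in knockout 0.10 with and 0.04 without the barcode. The points are cells of 1 library that still differ in depth, and correlations this weak in sparse counts are descriptions only. The counts over all pairs were added after the values were seen. They took only genes with at least 200 UMIs over both pools, which Atf3 and Nr4a2 did not reach, so the member pairs include sparser genes.

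Counted per cell, most fibroblasts held more of the 10 genes than most ES cells. Of the cells with at least 5000 UMIs, 11.0% (9.32 to 13.0) of the wild-type ES cells and 14.4% (12.1 to 17) of the knockout ES cells held 5 or more of the 10 genes, as did 37 of 38 wild-type and 9 of 9 knockout fibroblasts. The median was 3 genes in the ES cells of both libraries, and 8 and 7 genes in the wild-type and knockout fibroblasts. No member was found in 42 wild-type and 18 knockout ES cells and in 0 fibroblasts at that depth. With each cell taken at 500 UMIs, 29.4% of wild-type ES cells, 25.8% of knockout ES cells and 77.2% and 75.4% of the fibroblasts held at least 1 member, against 87.6%, 73.7%, 93.8% and 95.7% at full depth. In fibroblasts of at least 2000 UMIs the sum of the 10 genes ran from 3.25 to 98.7 UMIs per 10000 with a median of 42.1 in 42 wild-type cells, and from 11.0 to 59.1 with a median of 28.4 in 13 knockout cells. The ES cells had medians of 6.25 and 6.02 and reached 61.5 and, in the single barcode, 148.

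**Figure D4:**
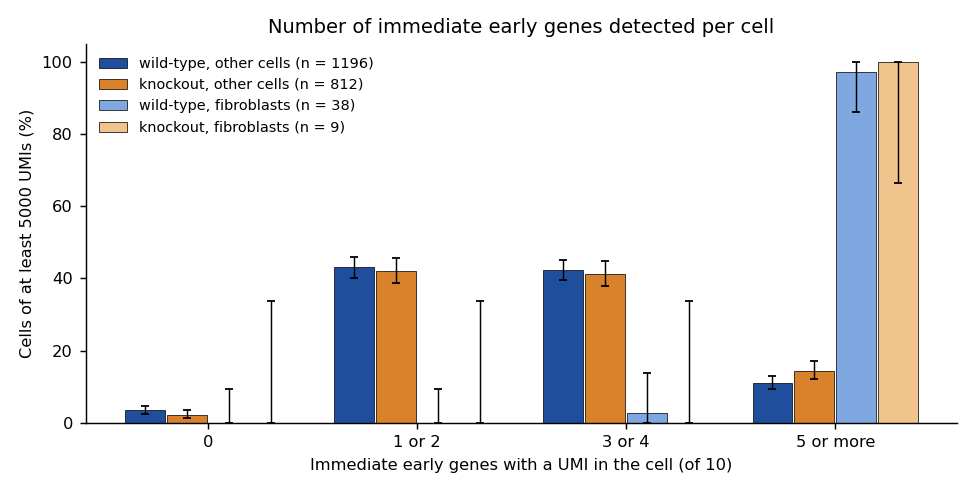
Share of cells of at least 5000 UMIs (vertical axis, %) in which 0, 1 or 2, 3 or 4, or 5 or more of the 10 genes had a UMI, for ES cells (named other cells) and fibroblasts of each library, with bars for exact binomial 95% intervals. The ES cells lie mostly at 1 to 4 genes, and all fibroblasts but 1 lie at 5 or more.

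Barcodes under 500 UMIs, 2472 wild-type and 4423 knockout ones, were set beside the kept cells as a pool in which free RNA, damaged cells and intact shallow cells cannot be told apart. This pool was not split by collagen share. The 3 collagen genes held 0.0749% of its UMIs in wild-type and 0.0542% in knockout, against 0.00222% and 0.00277% in ES cells. It thus held more fibroblast RNA than the ES pools, and the part of that RNA in the values below was not tested. Fos was higher in them than in ES cells, with 232 CPM in wild-type and 163 CPM in knockout, 1.82 (1.47 to 2.22) and 2.02 times (1.64 to 2.47). Nr4a2 was 6.81 (2.70 to 15.2) and 2.95 times (1.53 to 5.31) higher, from 8 and 14 UMIs. Ier2 was lower, 0.452 (0.338 to 0.591) and 0.425 (0.342 to 0.522), and the intervals of Fosb, Jun, Junb, Egr1, Atf3, Ier3 and Nr4a1 held 1 in both libraries.

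Other genes of the same response were counted from lists. Of 41 further primary response genes, 39 reached 20 UMIs in wild-type pools and 34 in knockout pools. Of these, 25 and 18 were at least 2-fold higher in fibroblasts, against 22.2% and 21.9% of all genes, and 4 and 5 were at least 2-fold lower, against 29.7% and 39.4%. The list's median was 2.07 on the log2 scale in wild-type and 1.10 in knockout, or 1.42 with genes at 0 set to 3 counts. Gadd45g, a growth arrest gene, had 67 UMIs in wild-type fibroblasts and 6 in ES cells (290 times, 126 to 818), Nr4a3, the remaining NR4A receptor, 18 and 2 UMIs (234 times, 56.0 to 2077), Fosl1, a FOS family subunit, 31 and 8 UMIs (101 times, 45.2 to 253), and Egr3 14 and 7 UMIs (51.9 times, 19.6 to 152). All of these reached 20 UMIs over both pools only through their fibroblast UMIs. Since the ES pool is far larger, a gene that passes this way is past 2-fold by the limit itself. Mafk, with 17 UMIs in wild-type ES cells, also passed this way. The count of 25 includes these genes. The count of 18 in knockout includes Id2, with 19 UMIs in knockout ES cells, which passed in the same way. The share of all genes was taken with the same limit. In knockout Gadd45g, with 12 and 5 UMIs, and Nr4a3, with 5 and 9, did not reach 20 UMIs over both pools, and their ratios were 192 (63.1 to 697) and 44.5 (11.7 to 148). Among the listed genes with enough UMIs in knockout the largest ratios were those of Fosl1 at 60.1 (30.7 to 116), Fosl2 at 17.8 (8.0 to 35.8), the antiproliferative Btg2 at 17.3 (14.2 to 20.9) and Id1 at 12.2 (7.57 to 18.8). Klf2, also a naive pluripotency factor and listed among the ES markers, had 9.27 CPM in wild-type fibroblasts and 213 CPM in ES cells. Arc, known from neuronal activity, had 0 UMIs in both pools of fibroblasts. Of the 29 listed genes with at least 200 UMIs it alone was at least 2-fold higher in knockout ES cells, beside 1.19% of all genes. It had 38.2 against 16.2 CPM (2.35 times, 1.96 to 2.83). Among listed genes with fewer UMIs, Fosl1, Fosl2, Egr3 and Nr4a3 were past 2-fold higher there and Dusp2, Tnfaip3 and Id2 past 2-fold lower. None of these values leaves out the single barcode. In the fibroblasts 1 of 32 listed genes was at least 2-fold higher and 6 were lower in knockout, beside 6.46% and 15.9% of all genes, so the list did not stand apart from the background.

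The lists around the pathway, which share some genes such as Fosl1 and Atf2 with each other, held genes past 2-fold in both directions. Of 12 genes of ERK output and feedback, 3 were at least 2-fold higher and 4 lower in wild-type fibroblasts, and 3 and 3 of 11 in knockout, beside all-gene shares of 22.2% and 29.7% in wild-type and 21.9% and 39.4% in knockout. Phlda1 was 16.3 and 8.28 times and the phosphatase Dusp5 6.78 and 14.0 times higher, and Etv5, an ERK-dependent ETS factor, was lower at 0.0936 and 0.0649. Of 22 upstream kinases and factors 4 and 3 were higher and 6 and 6 lower in fibroblasts. The counts of both lists are near or under the background. Of the AP-1 and bZIP partners 6 of 13 and 6 of 12 were higher and 2 and 1 lower. The wild-type count of 6 includes Fosl1 and Mafk, with 8 and 17 UMIs in wild-type ES cells. Both reached the minimum of UMIs over both pools only through their fibroblast UMIs, so their direction was fixed by that limit. Of 12 heat shock genes 2 and 1 were higher and 6 and 7 lower in fibroblasts, with Hsp90aa1 at 0.207 and 0.169. In knockout over wild-type ES cells, 0 of 10 ERK output genes, 0 of 19 upstream genes, 0 of 9 partners and 0 of 10 heat shock genes passed 2-fold, which with 1.19% of all genes higher and 1.36% lower says nothing particular of lists this short.

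The genes whose levels followed the sum of the 10 genes most closely across ES cells of at least 2000 UMIs (1600 wild-type and 1097 knockout cells) were Tra2a, a splicing factor, Dusp1, a phosphatase that is itself an immediate early gene, Klf4, a pluripotency and primary response factor, Eef1a1, a translation elongation factor, and Pnrc1, a nuclear receptor coactivator. Their Pearson correlations, the lower of the libraries, were 0.193, 0.189, 0.176, 0.174 and 0.172, all weak. Dusp1 was 8.32 times (7.44 to 9.28) and 4.75 times (3.74 to 5.94) higher in fibroblasts, while Tra2a was lower, 0.167 and 0.412.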

How the data were processed

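Single-cell RNA-seq of 2 mouse inDrop libraries, 1 wild-type and 1 Lin28a knockout, was analysed. The files the authors deposited hold raw UMI counts for genes and barcodes, made with a published inDrop pipeline, with shallow barcodes kept. The submitters' processing notes name mm10 and Seurat 2.3.4, and the aligner and annotation are not given in the sources used here. The 63462 wild-type and 58924 knockout UMIs counted as ambiguous between genes were left out, 1 of them on a member in each library. The limits of 500 UMIs and 20% mitochondrial share follow the methods.

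Counts were summed per pool and scaled to CPM. Levels had exact Poisson, shares Clopper-Pearson and ratios conditional binomial intervals. Genes needed 200 UMIs over both pools, or 20 where fibroblasts entered, to be counted past 2-fold. The 10 genes, the other lists and the markers were chosen with earlier results of these data known. All 10 members were named, the 5 genes with the highest correlation, and of each list at most the 4 largest and 2 smallest ratios past 2-fold. The calculation was tested on simulated counts. Doublets were kept, and left out as an alternative with Scrublet, which marked 27 wild-type and 18 knockout cells. Other alternatives changed the limits on cells, the denominator, the scaling, the fold and the thinning. Scripts ran in Python 3.11.15 with scanpy 1.11.5 for Scrublet, scipy 1.17.1 for intervals, matplotlib 3.10.9 for plots, and pandas 2.3.3 and numpy 2.4.6. Names and coordinates are from GENCODE M21 of GRCm38.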

Additional observations from a re-analysis of the deposited data

Results flagged for a closer look

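Junb moved in opposite directions in the cell types. Knockout over wild-type was 1.29 (1.14 to 1.46) in ES cells and 0.710 (0.525 to 0.945) in fibroblasts, with intervals on opposite sides of 1. The difference was not tested, since there is 1 library per genotype, and the genotype of the fibroblasts themselves is not given. Without the single knockout barcode the ES ratio was 1.16 (1.02 to 1.32), and without the 1% of cells with most UMIs of the 10 genes 1.13 (0.989 to 1.28). With a collagen limit of 0.1%, which counts that barcode and its 56 Junb UMIs as a fibroblast, the fibroblast ratio was 1.06 (0.844 to 1.31), and with that limit and without the barcode 0.607 (0.45 to 0.806).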

How the results depend on the processing

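No paired analysis was possible because there is 1 library per genotype. For the sum of the 10 genes, fibroblasts over ES cells was 3.97 or higher in both libraries under every alternative run, and moved beyond the counting interval of 5.999 in wild-type to 5.66 with a collagen limit of 1% and 5.10 with median of ratios scaling, and of 4.49 in knockout to 6.01 with a collagen limit of 0.1%, 3.97 with that scaling and 5.08 without the 1% of cells with most member UMIs. Knockout over wild-type in ES cells went from 0.979 to 0.940 and 0.944 with collagen limits of 0.1% and 1%, 0.937 with median of ratios scaling, 0.930 without the top 1% of cells and 0.941 without the single barcode, an alternative chosen after seeing the data. In fibroblasts it went from 0.734 to 0.970 with a collagen limit of 0.1% and 0.624 with that scaling. The limit of 0.1% counts the single barcode as a fibroblast. With that limit and without the barcode, also chosen after seeing the data, the ratios were 0.940 in ES cells and 0.653 in fibroblasts, fibroblasts over ES cells in knockout was 4.05, and 2 genes were lower in knockout fibroblasts.

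Counts past 2-fold moved by 1 or 2 genes. In knockout over wild-type ES cells 0 and 0 genes became 1 higher and 1 lower at 1.5-fold, and 2 higher with no minimum of UMIs. In fibroblasts 0 higher became 1 with a collagen limit of 1% and with no minimum, and 1 lower became 2 with 1000 or 2000 UMIs, a mitochondrial limit of 10%, median of ratios scaling, cells under 5% RP share left out or 1.5-fold, and 0 with a collagen limit of 0.1%. With a collagen limit of 1%, 1 gene was lower in fibroblasts than in ES cells in each library, Atf3 at 0 UMIs. Shares of cells with a member UMI rose with depth: with 1000 UMIs per cell to 48.7% and 44.5% of wild-type and knockout ES cells and 94.2% and 94.5% of the fibroblasts, and with no thinning to 87.6%, 73.7%, 93.8% and 95.7%. The counts of overdispersed genes and of gene pairs stayed within 1.5 times, the pairs at 34 of 45 in knockout without the single barcode. Of the ratios of single genes, 25 moved beyond their counting interval, 514 did not and 0 of those past 2-fold turned. For Atf3 in fibroblasts, a collagen limit of 1% left 0 UMIs in both libraries and so no ratio between them. The fibroblast pools of 48 and 23 cells set the precision of every fibroblast value.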
